A study of Mesocricetus auratus with 9 samples.

Results

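Livers of Syrian hamsters (Mesocricetus auratus) in early arousal from torpor were compared with livers of summer euthermic hamsters, 3 libraries against 3 of the 9 libraries of the series, with 1 animal per library. Libraries were chosen by the hibernation stage in the labels, and every gene with enough reads was described. Of 17090 genes listed with a count in some library, 16745 had at least 1 count in these 6 libraries and 12780 were tested. The arousal early animals had been kept in darkness, had spent more than 3 days in torpor and were woken by gentle handling, so their arousal was induced and not spontaneous. Summer euthermic animals stood outside hibernation, and torpor late animals formed the third stage, which entered the estimate of the spread. Mouth temperature at sampling was 35.0 ± 2.1 °C in arousal early and 35.7 ± 0.5 °C in summer euthermic animals, against 9.0 ± 0.9 °C in torpor late animals (the kind of spread is not stated). Strain, sex and age were not given in the sources used here, and light and season differed between the stages along with hibernation, so their parts cannot be told apart.

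The Syrian hamster is a facultative hibernator: short days and cold bring it into bouts of torpor, in which body temperature and metabolism fall far below those of a warm animal. Bouts end in arousals, when heat production rewarms the body within hours before the next bout. The liver supplies glucose, ketone bodies, lipoproteins and most plasma proteins. Early arousal set beside summer thus compares seasons and states at a like mouth temperature. The temperature of the liver itself was not among the values used here. In whole liver, a change in the proportions of cell types and a change in RNA per cell cannot be told apart.

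Total counts ranged from 31804620 to 47565345 in arousal early and from 38278597 to 43253103 in summer euthermic libraries, and each library had a count for 14933 to 15272 genes. Pearson correlations of log2 CPM (CPM, counts scaled to a common library size after TMM adjustment) across the genes tested were 0.972 to 0.983 between arousal early libraries and 0.975 to 0.988 between summer euthermic libraries. Across the stages they were 0.960 to 0.976, so the ranges within and between stages met. Which pairs were closest followed a division of the libraries that is given below. Genes are given by Ensembl identifier because the files pair them with no names. The liver identity of the samples therefore was not checked against marker genes here, and neither were markers of blood or other cells.

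In early arousal, 282 genes were higher and 205 lower than in summer euthermic liver, which is 2.21% and 1.6% of the 12780 genes tested (3.81% together; edgeR's quasi-likelihood test, adjusted p under 0.05). Most of these differences were modest: 178 higher and 123 lower genes differed by less than 2-fold, 61.8% of those called. The interquartile range of the log2 fold change was 0.60 to 1.32 in the higher genes and -1.22 to -0.67 in the lower genes. Over all genes tested the median log2 fold change was -0.0039, and the interquartile range was -0.23 to 0.23. Of the genes called, 29 were higher and 13 lower by 4-fold or more.

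A large fold was not by itself enough for a call. Among all genes tested, 400 were fitted at least 2-fold higher and 366 at least 2-fold lower in early arousal, of which 296 and 284 were not called. The adjusted p-value of the last gene called was 0.0498, and that of the first gene not called was 0.0501. For 46 higher and 19 lower genes called, the whole 95% confidence interval of the log2 fold change lay beyond a 2-fold difference.

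**Figure D1:**
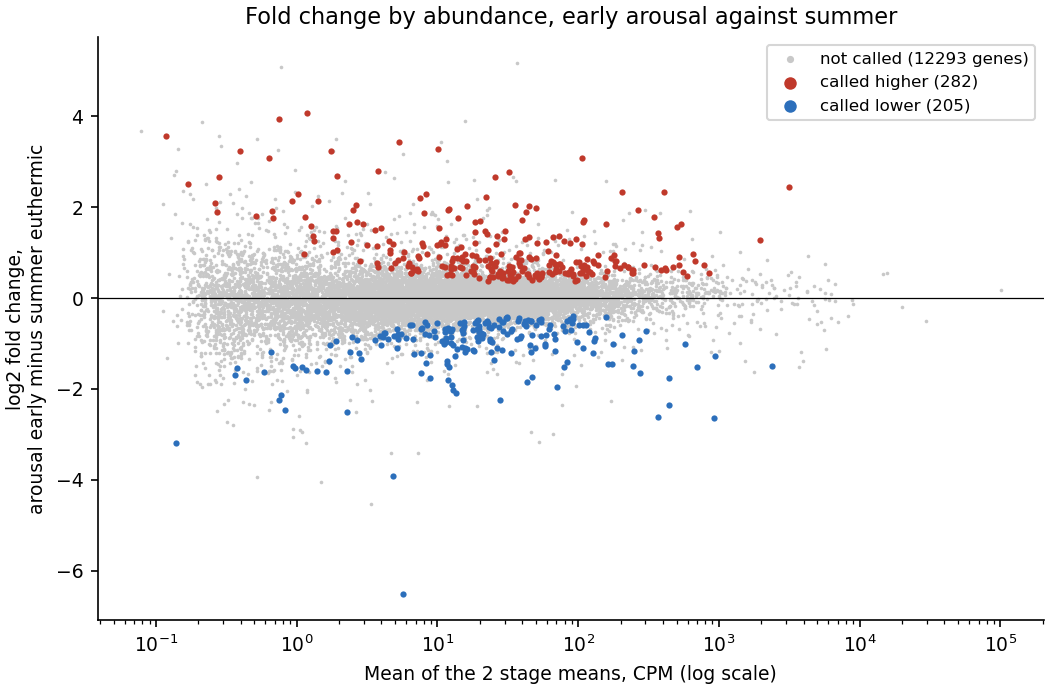
Log2 fold change of early arousal against summer euthermic liver (vertical axis) by mean abundance in CPM (horizontal axis, log scale), 1 point per gene, for the 12780 genes tested. The 282 genes called higher (red) and 205 called lower (blue) form bands on either side of 0, and genes not called (grey) spread widest at low abundance.

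The data also bound how far most genes could differ between the stages. For 9225 of the genes tested (72.2%), the 95% confidence interval lay within a 2-fold difference in either direction, and for 5147 (40.3%) within 1.5-fold. Of the genes called, 162 had intervals within 2-fold, though these intervals are not corrected for the choice of genes by their p-values. For 3230 genes (25.3%) that were not called, the interval reached past 2-fold, so a 2-fold difference of these genes was not excluded. The intervals are not adjusted for the number of genes tested, whereas the calls are. Some of these genes therefore had an interval that excluded no difference, such as ENSMAUG00000000052 (log2 fold change -2.09 to -0.52).

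The share of genes called rose with abundance, and so did the precision of the fold changes up to 100 CPM. Of the 1710 genes with a mean under 1 CPM, 23 were called (1.35%), and of the 4170 genes between 1 and 10 CPM, 104 were called (2.49%). The share was 4.83% of the 5673 genes between 10 and 100 CPM and 7.01% of the 1227 genes at 100 CPM and over. The median standard error of the log2 fold change was 0.417 in the lowest band, 0.222 in the next, 0.137 between 10 and 100 CPM and 0.144 at 100 CPM and over. The smallest log2 difference called was 1.19 under 1 CPM and 0.36 between 10 and 100 CPM.

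Among abundant transcripts, calls leaned to the higher side. At 100 CPM and over, 60 genes were called higher and 26 lower in early arousal. Between 10 and 100 CPM the numbers were 154 and 120, between 1 and 10 CPM they were 56 and 48, and under 1 CPM they were 12 and 11. Whether the lean differs between the bands was not tested. With upper-quartile scaling in place of TMM the higher genes were 51.8% of all calls, against 57.9% with TMM and 60.8% with RLE scaling.

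**Figure D2:**
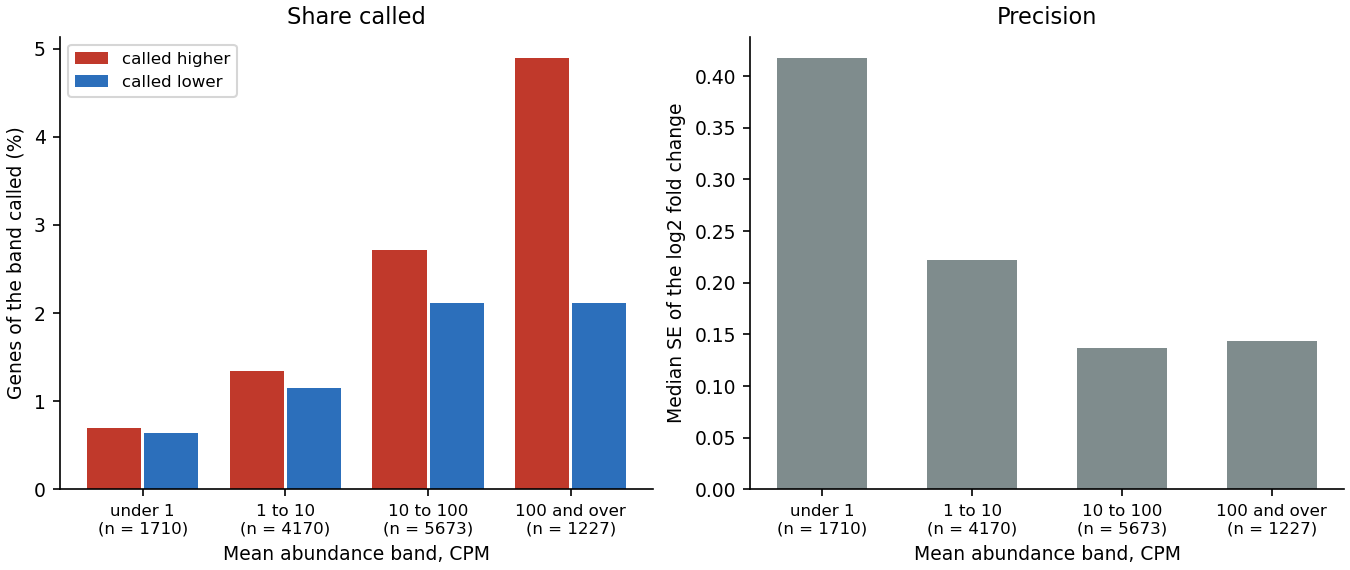
Left: percentage of the genes in each band of mean abundance (CPM) that were called higher (red) or lower (blue) in early arousal, with the number of genes tested under each band. Right: median standard error of the log2 fold change in the same bands, which falls from 0.417 under 1 CPM to 0.137 between 10 and 100 CPM.

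The genes called were 3.81% of the genes tested and held a small part of the counts. The 282 higher genes held 3.52%, 3.84% and 3.56% of the counts of the tested genes in arousal early replicates 1 to 3, and 1.83%, 1.78% and 1.72% in summer euthermic replicates 1 to 3. The 205 lower genes held 0.847%, 0.808% and 0.852% of the counts in early arousal and 1.91%, 2.11% and 2.03% in summer. These values describe the choice of the genes and support no difference. Torpor late libraries took no part in the contrast, though they entered the spread, and there the higher genes held 2.79%, 2.79% and 2.44% and the lower genes 1.02%, 1.16% and 1.23% of the counts. Torpor late libraries lay between the other two stages for both sets, where a stage without any difference of its own could also fall, since the genes were chosen for the distance between the other two. Without genes of 1000 CPM and over, the higher genes held 2.85 ± 0.220% in early arousal, 2.19 ± 0.114% in late torpor and 1.57 ± 0.0614% in summer (SD, n = 3 each), and the lower genes 0.711 ± 0.0355%, 0.942 ± 0.0621% and 1.66 ± 0.0910% (SD, n = 3 each).

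The genes called in early arousal were also read in the other stage comparisons, which share libraries with this one. The 282 higher genes had a median log2 fold change of 0.81 in early arousal against summer, 0.56 in late torpor against summer and 0.25 in early arousal against late torpor. The 205 lower genes had medians of -0.88, -0.63 and -0.20 in the same order. Over all genes tested, these medians were -0.0039, 0.0099 and -0.0099. Genes chosen for early arousal against summer tend to take the same sign in both other comparisons, through the libraries shared. All genes tested were not chosen by direction, so their medians are no benchmark for these sets. Whether the sets as a whole changed in late torpor was not tested.

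No gene with at least 10 counts in every library of one stage was without any count in the other. There were 25 genes with a count in each arousal early library and none in summer, and 33 with a count in each summer library and none in early arousal. The highest count of any of them in a library was 7 and 12, so the presence or absence of a transcript was not resolved at this depth for these genes.

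Genes were named by one rule: called, without overlap between the 3 libraries of each stage, and averaging 10 CPM or more in whichever stage was higher, which left 221 higher and 157 lower genes. Libraries did not overlap for 3859 of all genes tested (30.2%). The 2 with the largest fold change in each direction are given with their values. Their functions and positions are not given, since identifiers were not paired with names.

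ENSMAUG00000001119 was the gene with the largest rise under this rule. It stood at 18.3, 13.1 and 23.7 CPM in arousal early replicates 1 to 3 and at 3.81, 1.06 and 0.808 CPM in summer euthermic replicates 1 to 3. The stages did not overlap, and summer euthermic replicate 1 was well above the other summer libraries. The mean rose from 1.89 ± 1.66 CPM in summer to 18.3 ± 5.29 CPM in early arousal (SD, n = 3 each). The fitted log2 fold change was 3.27, with an SE of 0.64 and a 95% interval of 1.82 to 4.72 (edgeR adjusted p = 0.0329). The call was lost in 5 of the 6 fits that left out 1 arousal early or summer euthermic library (edgeR adjusted p up to 0.107). It was kept only without summer euthermic replicate 1, where the log2 fold change was 4.29 (edgeR adjusted p = 0.0259). In torpor late libraries the gene stood at 8.19, 7.93 and 2.23 CPM, and replicate 3 there was within the summer range. Late torpor against summer gave 1.68 on the log2 scale, with an SE of 0.62 (edgeR adjusted p = 0.168).

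ENSMAUG00000008804 rose on average but was uneven within early arousal. Its values were 41.2, 397.1 and 133.8 CPM in arousal early replicates 1 to 3 and 20.3, 29.5 and 18.1 CPM in summer euthermic replicates 1 to 3. Arousal early replicate 2 was far above the other libraries, and replicate 1 was closer to the summer libraries than to replicate 2. The mean was 190.7 ± 184.6 CPM in early arousal and 22.6 ± 6.02 CPM in summer (SD, n = 3 each). The fitted log2 fold change was 3.07, with an SE of 0.66 and a 95% interval of 1.59 to 4.56 (edgeR adjusted p = 0.0413). Without arousal early replicate 2 the log2 fold change was 1.95 (edgeR adjusted p = 0.0942). The call was lost there and in 4 more of the 6 such fits (edgeR adjusted p up to 0.136), and kept only without arousal early replicate 1 (edgeR adjusted p = 0.0161). Torpor late libraries were even, at 130.3, 162.2 and 173.7 CPM, all above the summer libraries. Late torpor against summer gave 2.78 on the log2 scale, with an SE of 0.65 (edgeR adjusted p = 0.0667).

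ENSMAUG00000017104, an abundant transcript in summer, fell most under this rule. It stood at 1468, 1600 and 1676 CPM in summer euthermic replicates 1 to 3 and at 108.2, 245.4 and 406.6 CPM in arousal early replicates 1 to 3. Summer libraries lay close together, whereas arousal early libraries spread widely, all far below summer. The mean was 1581 ± 105.3 CPM in summer and 253.4 ± 149.4 CPM in early arousal (SD, n = 3 each). The fitted log2 fold change was -2.64, with an SE of 0.45 and a 95% interval of -3.66 to -1.62 (edgeR adjusted p = 0.0225). The call was lost in 2 of the 6 such fits, without arousal early replicate 2 (edgeR adjusted p = 0.0936) and without summer euthermic replicate 3 (edgeR adjusted p = 0.0703). Torpor late libraries stood at 264.3, 563.3 and 570.4 CPM, also below every summer library. Late torpor against summer gave -1.76 on the log2 scale, with an SE of 0.44 (edgeR adjusted p = 0.0754).

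ENSMAUG00000009469 fell by a like amount. It stood at 657.5, 424.8 and 816.3 CPM in summer euthermic replicates 1 to 3 and at 22.3, 128.2 and 157.9 CPM in arousal early replicates 1 to 3. No arousal early library reached the lowest summer library, and arousal early replicate 1 was the lowest of all. The mean was 632.8 ± 196.9 CPM in summer and 102.8 ± 71.3 CPM in early arousal (SD, n = 3 each). The fitted log2 fold change was -2.62, with an SE of 0.59 and a 95% interval of -3.95 to -1.30 (edgeR adjusted p = 0.0445). The call was lost in 5 of the 6 such fits (edgeR adjusted p up to 0.13) and kept only without arousal early replicate 1 (edgeR adjusted p = 0.0218). Torpor late libraries stood at 119.7, 176.0 and 153.1 CPM, within or just above the arousal early range. Late torpor against summer gave -2.08 on the log2 scale, with an SE of 0.58 (edgeR adjusted p = 0.0929).

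**Figure D3:**
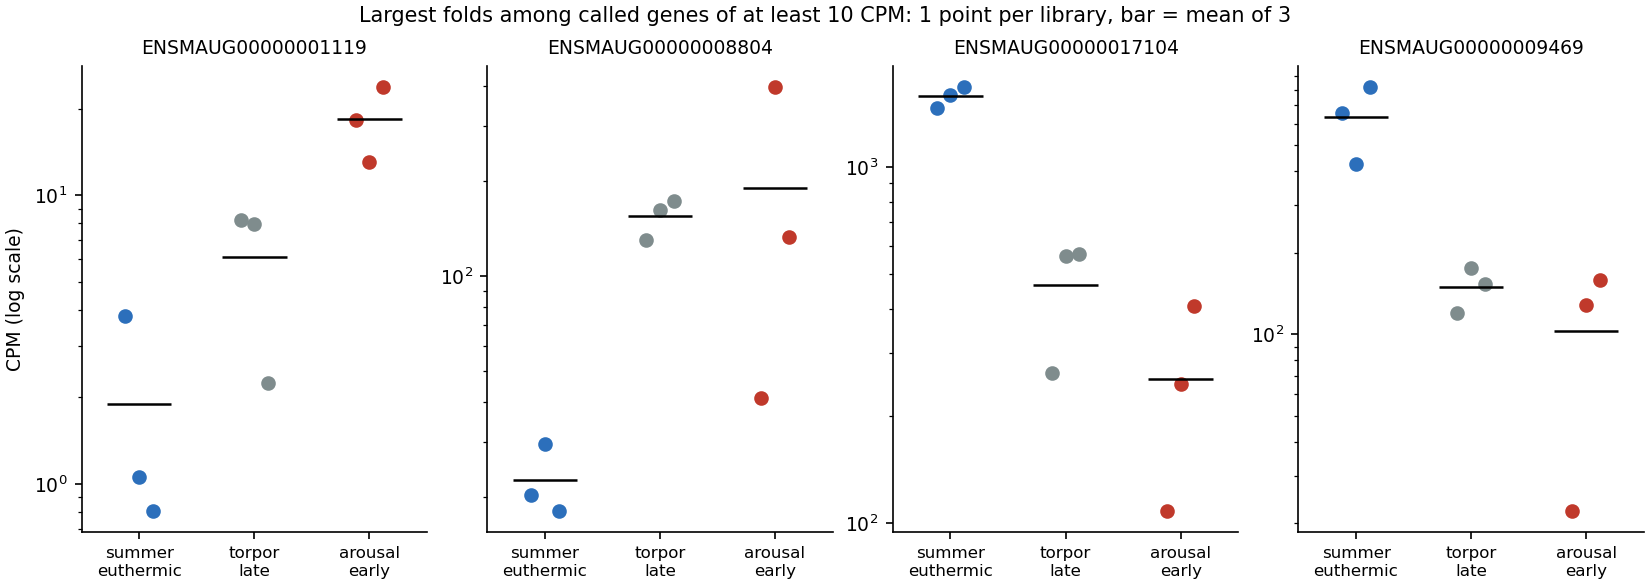
CPM (vertical axes, log scale, a separate range in each panel) of ENSMAUG00000001119, ENSMAUG00000008804, ENSMAUG00000017104 and ENSMAUG00000009469 in each library, by stage, with a bar at the mean of the 3 libraries. Arousal early and summer euthermic libraries do not overlap in any panel, and ENSMAUG00000008804 spans 41.2 to 397.1 CPM within early arousal.

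The libraries also divided in a way that the stages do not explain. A 10-fold or wider gap that parted the 9 libraries into sets of 2 or more was found in 9 genes with 10 CPM or more in a library, and 7 of the 9 parted them alike. Arousal early replicates 1 and 2, summer euthermic replicate 2 and torpor late replicate 1 formed a side of 4 libraries, and the others a side of 5. Of these 7 genes, 0 were called between early arousal and summer. Correlations over the genes tested also followed the sides. Across the stages they were 0.975 to 0.976 for pairs on one side and 0.960 to 0.971 for pairs on opposite sides. Within a stage, the pairs on one side reached 0.983 (arousal early) and 0.988 (summer euthermic), and pairs on opposite sides 0.972 to 0.979. The cause of the division was not tested. The side of 4 held more arousal early than summer euthermic libraries, and the side of 5 fewer. A difference between the sides can therefore enter the fold changes of the main fit, which has no covariate. With the division as a covariate, 296 genes were higher and 203 lower in early arousal, of which 371 were among the 487 genes called without it. ENSMAUG00000008804 lost its call in this fit, at a log2 fold change of 2.96 (edgeR adjusted p = 0.0528), and the other three named genes kept theirs. Differences in mean log2 CPM between arousal early and summer euthermic libraries were also taken within each side. They are not fitted fold changes and can depart from those without any effect of the division. Within the side of 4, the differences were 3.81 for ENSMAUG00000001119, 2.12 for ENSMAUG00000008804, -3.30 for ENSMAUG00000017104 and -2.99 for ENSMAUG00000009469. Within the side of 5, they were 3.70, 2.80, -1.95 and -2.21 in the same order. A side holds 1 library of one of the stages, so these values have no test. All 4 genes differed in the same direction on both sides, a direction that libraries without overlap fix.

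The number of genes called fell when single animals were left out. Fewer libraries alone can lower it. Without 1 torpor late library, which takes no part in the contrast, 353 to 443 genes were called, against 487. Without arousal early replicate 2, 21 genes were higher and 9 lower, and without summer euthermic replicate 3 the numbers were 23 and 25. Without arousal early replicate 1 they were 139 and 74, without summer euthermic replicate 1 they were 94 and 72, and without summer euthermic replicate 2 they were 97 and 78. Without arousal early replicate 3, 210 genes were higher and 119 lower. Of the 487 genes, 24 were called in each of the 6 fits without 1 arousal early or summer euthermic library. Of these 24, 15 were higher and 9 lower, and 163 of the 487 were called in none of the 6 fits. The 4 named genes were not among the 24, since each lost its call without arousal early replicate 2. The 24 genes had a median absolute log2 fold change of 1.38 with all libraries, and the smallest was 0.85. The fitted fold change of 475 of the 487 genes moved by less than 1.5-fold in every one of the 6 fits, and that of the other 12 moved by more in at least 1 fit. Per fit, the median absolute shift in their log2 fold change was 0.050 to 0.058. Over all genes tested it was 0.052 to 0.074, and 94.5% of them moved by less than 1.5-fold in each fit, against 97.5% of the genes called. The fits share most libraries, and the genes called were chosen for a small spread relative to their change, so the steadiness of their fold changes is a description only.

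**Figure D4:**
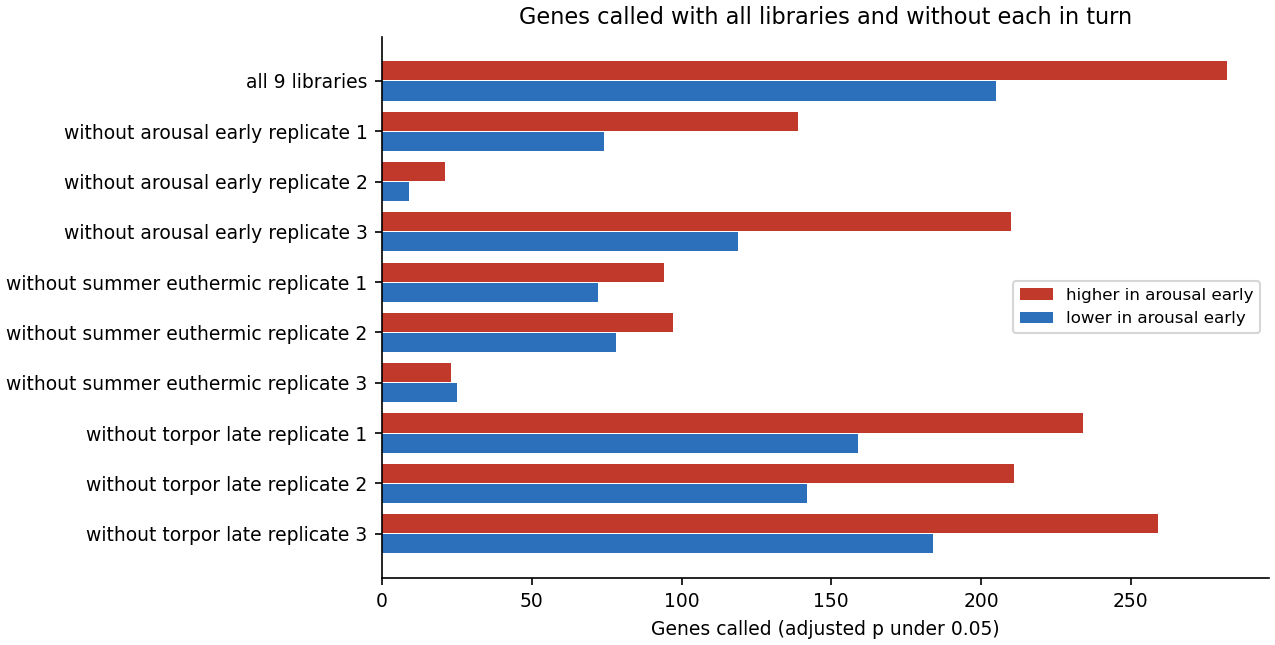
Number of genes called higher (red) and lower (blue) in early arousal than in summer (horizontal axis) with all 9 libraries and without each library in turn (vertical axis). Counts are lowest without arousal early replicate 2 (21 and 9) and without summer euthermic replicate 3 (23 and 25).

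A library left out of a fit gave a reading of the genes called without it. Of the 213 genes called without arousal early replicate 1, 93.0% differed from the summer mean in the same direction in that animal, compared with 73.0% of all genes tested. Of the 329 genes called without arousal early replicate 3, 96.7% did so in that animal, compared with 70.4% of all genes, and all 30 genes called without arousal early replicate 2 did so, compared with 78.9%. For summer libraries left out, set against the arousal early mean, the shares were 97.6% of 166 genes for replicate 1, 95.4% of 175 for replicate 2 and 100% of 48 for replicate 3. The shares of all genes tested were 78.1%, 74.1% and 78.0% in the same order. These shares include the libraries of the other stage, which both readings have in common, so agreement is partly built in. The genes called were chosen for their distance from those same libraries, so the share of all genes tested is no benchmark for them. The shares count genes within 1 animal, which are not replicates of a stage, and are a description only.

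Differences were smaller in the library left out than in the libraries that chose the genes. The value in the library left out is its difference in log2 CPM from the mean of the other stage. The value without it is a fitted fold change, which is an unlike measure. Choosing genes by significance can by itself make the left-out value the smaller one, so the gap is a description only. For arousal early replicate 3, the median log2 difference of the higher genes was 0.73 in that animal and 1.07 without it, and that of the lower genes was -0.71 and -1.08. For arousal early replicate 1, the medians were 0.81 and 1.02 for higher genes and -0.78 and -0.99 for lower genes. For arousal early replicate 2, they were 1.31 and 1.37 for higher genes and -1.14 and -1.30 for lower genes. The summer libraries gave the same order, with medians of 0.81 to 1.19 in the library left out and 1.03 to 1.38 without it for higher genes. For lower genes these were -0.74 to -1.09 and -1.13 to -1.19.

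**Figure D5:**
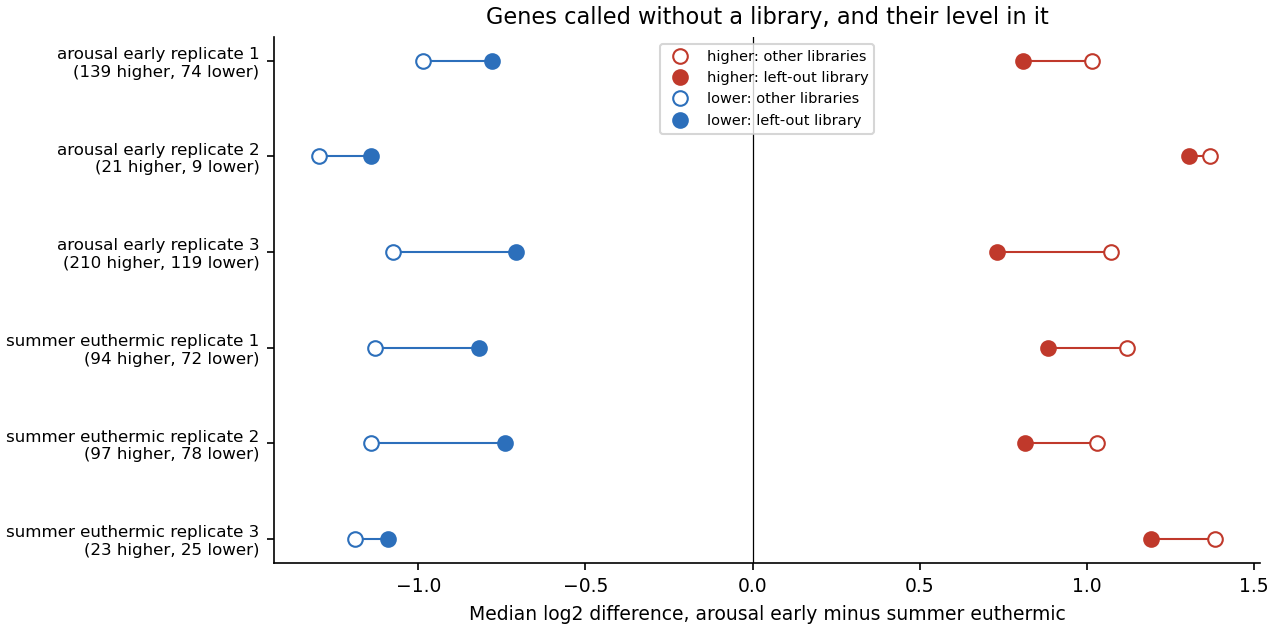
Median log2 difference between early arousal and summer (horizontal axis) of the genes called without one library (vertical axis), in the remaining libraries (open points) and in the library left out (filled points), for higher (red) and lower (blue) genes. All filled points lie on the same side of 0 as the open points and closer to 0, for example 0.73 against 1.07 for higher genes and arousal early replicate 3. Open points are fitted fold changes and filled points are differences in log2 CPM, for genes chosen by the remaining libraries.

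Neither stage was the more variable one by every measure. The median standard deviation of log2 CPM over the genes tested was 0.198 within early arousal and 0.168 within summer, with no test of the difference. Among the genes called it was 0.160 and 0.170. Of the 7510 genes reaching 10 CPM in the 6 libraries, 515 spanned at least 2-fold within early arousal and 412 within summer. The numbers were 102 and 100 for a span of at least 4-fold, and 34 and 36 for one of at least 10-fold. Among the genes called higher, arousal early replicate 2 was the highest arousal early library for 121 of 282 (42.9%, against 28.9% of all genes tested), and replicate 3 was the lowest for 118 (41.8%, against 34.9%). Among the genes called lower, replicate 1 was the lowest for 89 of 205 (43.4%, against 38.5% of all genes tested) and replicate 3 the highest for 95 (46.3%, against 38.3%). Arousal early replicate 3 had median log2 differences from the summer mean of 0.78 in the higher and -0.76 in the lower genes, against 0.81 and -0.97 for replicate 1 and 0.86 and -0.90 for replicate 2.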

How the data were processed

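Stranded poly(A) libraries had been made from 437 ng of liver RNA per animal and read from a single end to 75 bp, per the labels' protocols. The authors deposited raw read counts per Ensembl gene with 1 column per animal. STAR 2.7.0f is named in the submitters' processing notes. The counting program, strand setting, genome build and annotation are not given in the sources used here, so overlapping or near-identical genes may share reads. Counts give relative abundance, so a change in RNA per cell cannot be seen. Of 17090 identifiers, 0 matched an entry of the RefSeq gene table that was given, so lists of pathway genes and cell type markers, positions and sequences were not used. The comparison, lists and rules were chosen with earlier results of these data known.

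The model was fitted with edgeR 4.0.16 (R 4.3.3). Genes passing filterByExpr were scaled by TMM and fitted with all 9 libraries in one quasi-likelihood model (glmQLFit, glmQLFTest), with Benjamini-Hochberg adjustment over 12780 genes and calls at 0.05. Genes left out held at most 0.0344% of a library's counts. Standard errors are the absolute log2 fold change over the square root of F, and 95% intervals use the test's degrees of freedom. Log2 CPM used a prior count of 2. The rule for naming took called genes without overlap that averaged 10 CPM or more in either stage, the 2 largest changes in each direction. Alternatives used DESeq2 1.42.0, limma-voom from limma 3.58.1, upper-quartile or RLE scaling, other filters, fewer libraries, a covariate and a stricter threshold. The procedure was run on counts simulated from its own fitted model, with no division of the libraries. That run cannot show whether the calls hold in these animals. No 2 libraries of a stage held the same counts (the lowest chi-square was 53.7 per degree of freedom). With 3 animals against 3, an exact two-sided test of a single value cannot go below 0.1. The common biological coefficient of variation was 22.3%. How far spread between animals and low counts each limit the precision was not tested.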

Additional observations from a re-analysis of the deposited data

How the results depend on the processing

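The counts of 282 higher and 205 lower genes stayed within 1.5 times with limma-voom, upper-quartile or RLE scaling, no filter, a minimum of 10 counts per library, the covariate, and without the 50 genes of highest abundance. DESeq2 called 776 higher and 556 lower genes, which included all 487. Only the 6 libraries compared gave 172 and 134, of which 266 were among the 487. At an adjusted p under 0.01 there were 14 and 6. Leaving out 1 of the 9 libraries at a time gave 21 to 259 higher and 9 to 184 lower genes, and genes at an unadjusted p under 0.05 ranged from 2137 to 3093, against 2941 with all libraries. The causes were not tested, and fewer samples alone can lower the counts. Over 19 alternatives for each of the 4 named genes, 45 of 76 values kept the call, 31 lost it and 0 changed direction. The call was lost in 6 of 19 for ENSMAUG00000001119, 12 for ENSMAUG00000008804, 3 for ENSMAUG00000017104 and 10 for ENSMAUG00000009469. With only the 6 libraries compared, ENSMAUG00000008804 (edgeR adjusted p = 0.0769) and ENSMAUG00000009469 (edgeR adjusted p = 0.0823) were not called. ENSMAUG00000001119 and ENSMAUG00000017104 kept their calls there. The adjusted p-value reached 0.107 for ENSMAUG00000001119, 0.136 for ENSMAUG00000008804, 0.0936 for ENSMAUG00000017104 and 0.13 for ENSMAUG00000009469. No paired analysis was possible because each library came from a different animal. The labels give no replicate numbers, and those used here follow the order of the samples in the series within each stage.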
